A study of Mus musculus with 14 samples.

Results

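CC chemokine ligands are small secreted proteins that recruit leukocytes through G protein-coupled receptors of the CCR family. Monocytes leave the bone marrow in response to Ccl2 and Ccl7, which bind Ccr2, and several other ligands of the family attract T cells, eosinophils and macrophages through other receptors, among them Ccr1 and Ccr3. Many of these genes are known targets of NF-κB, a transcription factor that signaling from the IL-1 receptor activates. The 10 genes described here (Ccl2, Ccl3, Ccl4, Ccl5, Ccl6, Ccl7, Ccl8, Ccl9, Ccl11 and Ccl12) were chosen by name from the 55487 genes counted in each library. The choice was made with earlier results of these data known.

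RNA was sequenced from 14 libraries. Marrow fractions were sorted by flow cytometry: LSK cells (Lin-Sca1+c-kit+), which are enriched in stem cells, and LK cells (Lin-c-kit+), which are mostly committed progenitors. Both came from lethally irradiated C57BL/6 mice that carried transplanted marrow with a heterozygous Jak2V617F knock-in allele. The allele had been switched on by Mx1Cre, an interferon-responsive Cre driver induced with pI-pC, and all of the mice, controls included, carried it in the donor cells. No step of the sort is described that separates donor from host cells. The mice received PBS or IL-1β (0.5 μg per dose, 3 doses per week, by intraperitoneal injection) for 16 weeks, and each population had 3 PBS and 2 IL-1β libraries. Mesenchymal stromal cells (MSC) were grown in culture from the marrow of C57BL/6 mice without the mutant allele and were treated with PBS or 5 ng/ml IL-1β for 72 h, with 2 libraries per treatment. Mice were 6 to 8 weeks old when taken into experiments, an age stated for all animals together and not by library. No labels say whether a library came from 1 animal or from a pool. P-values therefore measure the spread between libraries, which may be technical.

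Libraries held 4393233 to 30871055 counted read pairs. In LSK and LK cells every IL-1β library was shallower than every PBS library, so that depth and treatment cannot be told apart there. Libraries of the same group differed by more than sampling noise in every pair, with a chi-square per gene of 5.2 to 112. In the MSC cultures the macrophage markers were abundant: all 12 of a list that includes Adgre1, Csf1r and C1qa were detected in all 4 libraries. Of 12 mesenchymal markers listed, Lepr and Lum were the lowest and averaged at most 0.347 and 2.19 CPM. All others averaged at least 12.75 CPM under both treatments. Col1a1 averaged 610 and 1199 CPM, Col1a2 849 and 935 CPM, and Cxcl12 188 and 279 CPM under PBS and IL-1β. The cultures therefore held RNA of macrophage markers beside stromal genes. In these bulk samples, more cells of a type and more RNA per cell cannot be told apart.

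All 10 genes lie on mouse chromosome 11 (GRCm38) in 2 groups. Ccl2 (82035571 to 82037453), Ccl7 (82045712 to 82047525), Ccl11 (82057823 to 82062955), Ccl12 (82101845 to 82103400) and Ccl8 (82115185 to 82116799) follow one another on the plus strand. They encode monocyte chemoattractant proteins and, in Ccl11, the eosinophil attractant eotaxin. Ccl5 (83525778 to 83530518), Ccl9 (83572919 to 83578636), Ccl6 (83587882 to 83593087) and Ccl3 (83647844 to 83649355) are on the minus strand and Ccl4 (83662584 to 83664683) is on the plus strand. Ccl3 and Ccl4 encode macrophage inflammatory proteins, and Ccl6 and Ccl9 are ligands of Ccr1. Levels in a library are given as CPM, the counts relative to the TMM-adjusted library size of each population on its own, and levels of different genes are compared as TPM, which also divides by the exonic length.

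The populations differed in which ligands were detected at all. In the MSC cultures every ligand exceeded 3 counts in at least one library of each treatment. In the sorted cells Ccl11 and Ccl12 had 0 counts in all 10 libraries, Ccl8 had 1 count in 1 library, and Ccl7 had at most 2 counts. A count of 0 allows up to 3 counts, or 0.162 to 0.683 CPM in these libraries. Ccl2 had 2 to 14 counts in LSK cells and 0 to 19 in LK cells.

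**Figure D1:**
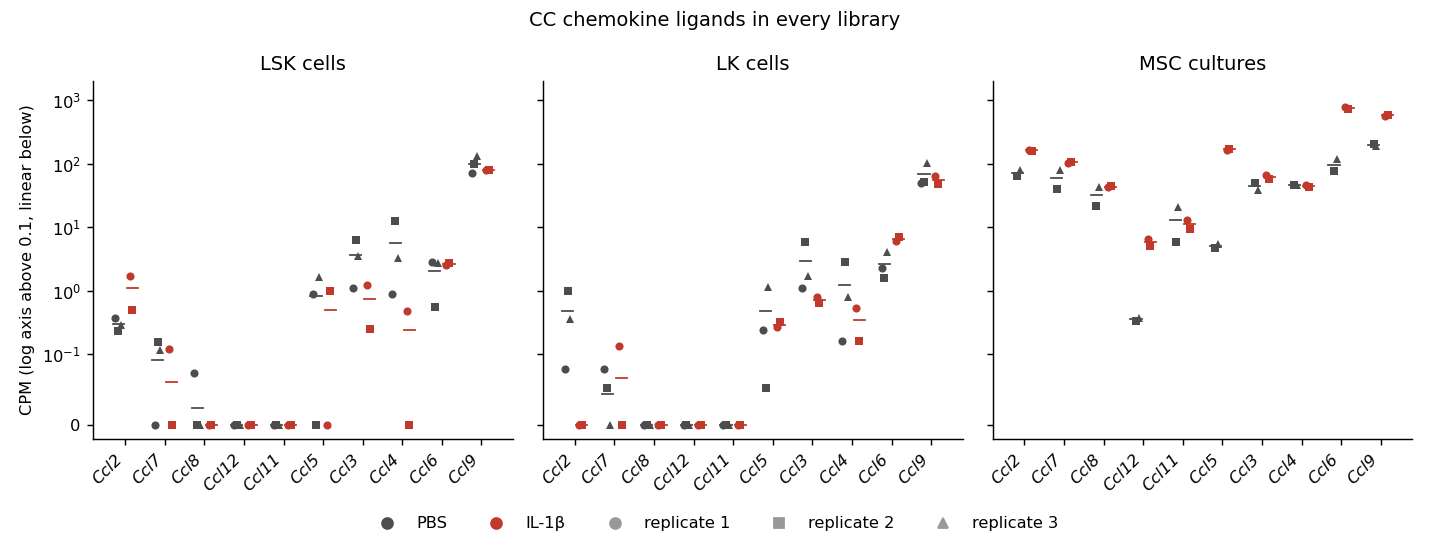
CPM of the 10 ligands (vertical axis, logarithmic above 0.1 and linear below) in every library of LSK cells, LK cells and MSC cultures, with PBS in grey and IL-1β in red, symbols for replicates and lines for means. Ccl9 is the highest ligand in the sorted cells, whereas all 10 ligands are above 0 in the 4 MSC libraries, with Ccl6 reaching 738 and 770 CPM under IL-1β.

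In MSC cultures treated with IL-1β, 5 of the 10 ligands rose (Ccl5, Ccl12, Ccl6, Ccl9 and Ccl2) and 0 fell. A gene was called when its Benjamini-Hochberg adjusted p from edgeR's quasi-likelihood test was under 0.05 and its log2 fold change above 0.5 in size. Of all 13239 genes tested in these cultures, 7.14% were called higher and 4.31% lower. Over the 10 ligands the log2 fold changes had a median of 0.97, against 0.00 over all genes tested.

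Ccl5 encodes RANTES, which attracts T cells and monocytes. Cultures with PBS held 4.67 and 5.42 CPM, and cultures with IL-1β held 164 and 172 CPM. Both IL-1β libraries lay far above both PBS libraries, and the means differed 33.3-fold. The log2 fold change was 5.03 (SE 0.14, adjusted p = 0.00021, n = 2 and 2 libraries).

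Ccl12, a mouse monocyte attractant that binds Ccr2, was barely detected without IL-1β. The PBS libraries held 2 and 5 counts (0.333 and 0.377 CPM) and the IL-1β libraries 202 and 57 counts (6.62 and 5.03 CPM). The ratio of the pooled rates was 17.1 with a 95% interval from 8.16 to 42.8, which covers counting error only. The log2 fold change was 3.99 (SE 0.42, adjusted p = 0.0058). Even after the rise, Ccl12 was among the least abundant of the ligands.

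Ccl6 and Ccl9 encode macrophage-derived attractants of mouse. Ccl6 measured 77.5 and 116 CPM with PBS and 770 and 738 CPM with IL-1β, a 7.78-fold difference of the means (log2 fold change 2.95, SE 0.21, adjusted p = 0.0021). Ccl9 measured 207 and 190 CPM with PBS and 570 and 594 CPM with IL-1β. Its log2 fold change was 1.55 (SE 0.11, adjusted p = 0.002). Both genes kept the treatments apart without overlap. They lie next to each other on the minus strand.

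Ccl2 encodes the monocyte attractant MCP-1. It measured 64.0 and 80.7 CPM with PBS and 163 and 160 CPM with IL-1β, a 2.23-fold difference (log2 fold change 1.15, SE 0.14, adjusted p = 0.0086). Its neighbour Ccl7, which encodes another ligand of Ccr2, had a wider spread under PBS, with 39.2 and 80.7 CPM against 103 and 107 CPM with IL-1β. Its log2 fold change of 0.79 (SE 0.34, adjusted p = 0.202) did not pass the test.

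The 4 other ligands did not pass either. Ccl8 measured 21.5 and 42.2 CPM with PBS and 42.5 and 44.0 CPM with IL-1β (log2 fold change 0.40, SE 0.30, adjusted p = 0.435). Ccl3, which encodes MIP-1α, measured 50.4 and 39.1 CPM against 65.5 and 57.0 CPM (0.47, SE 0.16, adjusted p = 0.112). It was called higher without a filter on low counts (0.51, adjusted p = 0.00258) and without PBS replicate 2 (0.67, adjusted p = 0.0001). Its divergently placed neighbour Ccl4, which encodes MIP-1β, measured 46.7 and 46.9 CPM against 45.5 and 43.5 CPM. The log2 fold change of Ccl4 was -0.07 (SE 0.10, adjusted p = 0.693), the smallest of the 10 in size. Ccl11 measured 5.84 and 20.4 CPM with PBS, on both sides of the 12.9 and 9.35 CPM with IL-1β.

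The libraries of 8 ligands did not overlap and were higher with IL-1β, as in 31.3% of all genes tested, and those of Ccl4 did not overlap and were lower, as in 29.8%. With groups of 2 libraries, separation alone is therefore common. PBS replicate 3 held more Ccl7, Ccl8 and Ccl11 than PBS replicate 2. Without PBS replicate 3, 8 ligands were called higher, Ccl7 (1.43), Ccl8 (1.01) and Ccl11 (0.98) being added to the 5, and over all 13645 genes tested there 1639 were called higher and 1155 lower, against 945 and 570 with all libraries. Without PBS replicate 2, 6 ligands were called higher, Ccl3 being added to the 5, and Ccl11 was called lower at -0.81, with 2038 genes higher and 1781 lower of 14006. The direction of Ccl11 rests on which PBS library is used. Without IL-1β replicate 1 the calls fell to 1 ligand (Ccl5, with 38 genes higher and 0 lower) and without IL-1β replicate 2 to 2 ligands (Ccl5 and Ccl6, with 80 and 2 genes). Across the 10 alternatives tried, Ccl5 remained called in each, with a log2 fold change of 4.96 to 5.17.

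**Figure D2:**
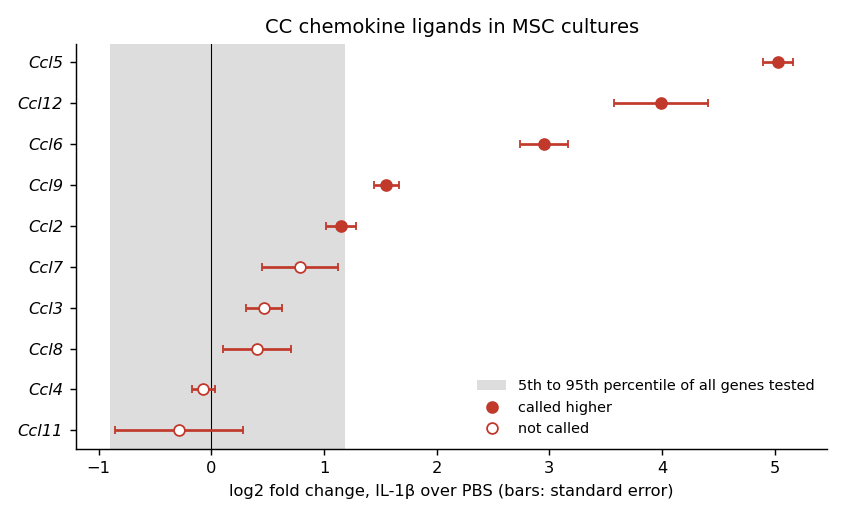
Log2 fold change of the 10 ligands in MSC cultures, IL-1β over PBS (horizontal axis, bars for the standard error), with called genes as filled and other genes as open points, against the 5th to 95th percentile of all 13239 genes tested (grey, -0.90 to 1.18). Ccl5, Ccl12, Ccl6 and Ccl9 lie beyond the grey band, and Ccl2 lies inside it at 1.15.

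The order of the ligands by level changed with treatment. Under PBS, Ccl7, Ccl4, Ccl9, Ccl2, Ccl8, Ccl3 and Ccl6 ranged from 219 down to 159 TPM on average, and each overlapped the next in this order. Ccl11 (35.3 TPM), Ccl5 (15.6 TPM) and Ccl12 (1.96 TPM) followed without overlap. Under IL-1β, Ccl6 was highest at 1239 TPM, followed by Ccl9 (564 TPM), Ccl5 (516 TPM), Ccl2 (418 TPM) and Ccl7 (387 TPM), each separate from the next. Ccl8 (249.5 TPM) and Ccl3 (236 TPM) overlapped, Ccl4 followed at 199 TPM, and Ccl12 and Ccl11 overlapped at the end of the order.

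The summed level of the 10 ligands was 1245 and 1517 TPM in the PBS libraries and 3953 and 3788 TPM in the IL-1β libraries. Ccl6 took 10.6 and 12.3% of this sum under PBS and 31.5 and 32.5% under IL-1β. Ccl5 went from 1.07 and 1.20% to 12.9 and 13.8%. The share of Ccl9 was 11.8 to 16.8% under PBS and 14.2 to 14.96% under IL-1β. These shares are descriptions of each library and were not tested.

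Of the 12 macrophage markers, 10 had positive log2 fold changes in these cultures, and the median over the 12 was 0.60. The markers called higher were 6 of the 12, among them Lyz2 (log2 fold change 1.77), Adgre1 (1.32) and Csf1r (1.25). Their summed level was 14229 and 18241 CPM under PBS and 34633 and 35527 CPM under IL-1β for all 12. Most of that rise was Lyz2, which averaged 5968 CPM under PBS and 20340 CPM under IL-1β. Cd68 and Tyrobp were not called, with -0.47 and -0.33. The summed mesenchymal markers measured 1704 and 3284 CPM under PBS and 2940 and 3275 CPM under IL-1β. The log2 fold changes of Ccl5, Ccl12 and Ccl6 were above that of every macrophage marker listed. That of Ccl9 was below Lyz2 alone. That of Ccl2 was below Lyz2, Adgre1, Fcgr1 and Csf1r and above the other macrophage markers. The summed monocyte markers, a list that shares Csf1r with the macrophage list, measured 1258 and 1824 CPM under PBS and 3400 and 3536 CPM under IL-1β, and 3 of the 8 were called higher, Ms4a6c (1.94), Cd14 (1.40) and Csf1r. Late neutrophil markers summed to 2.33 and 2.83 CPM under PBS and 16.9 and 17.1 CPM under IL-1β. Of these 8, 3 were tested and 2 called higher, Camp (5.45) above the change of Ccl5 and Mmp8 (2.99) above that of Ccl6. S100a8 was tested and not called, with means of 0.71 and 1.48 CPM under PBS and IL-1β. S100a9, Ngp and Retnlg averaged 0 CPM under both treatments. Ltf averaged 0.651 and 0.0656 CPM, and Cxcr2 0.0377 and 0.0164 CPM, under PBS and IL-1β. Markers of T and NK cells summed to at most 0.50 CPM in these cultures. The part of any of these cell types in the ligand values was not tested.

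Promoter sequences (250 bases before to 50 after the transcription start, RefSeq, GRCm38.p6, gene strand) were found for 5 of the 10 ligands. The 3 of them that rose in MSC cultures are shown with Ccl8, which did not pass the test and lies beside Ccl12. Capitals mark matches to broad letter patterns for the NF-κB (kB, GGG, any 3 bases and TTCC) and AP-1 (TGANTCA, N being any base) motifs. Both strands were searched, and all other bases are in lower case.
Ccl9: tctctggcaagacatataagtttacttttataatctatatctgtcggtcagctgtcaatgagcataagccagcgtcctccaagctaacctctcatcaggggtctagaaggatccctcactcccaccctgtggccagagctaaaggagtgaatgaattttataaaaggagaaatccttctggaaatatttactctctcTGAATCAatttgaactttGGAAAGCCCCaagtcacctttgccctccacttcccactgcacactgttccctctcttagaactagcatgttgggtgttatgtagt
Ccl6: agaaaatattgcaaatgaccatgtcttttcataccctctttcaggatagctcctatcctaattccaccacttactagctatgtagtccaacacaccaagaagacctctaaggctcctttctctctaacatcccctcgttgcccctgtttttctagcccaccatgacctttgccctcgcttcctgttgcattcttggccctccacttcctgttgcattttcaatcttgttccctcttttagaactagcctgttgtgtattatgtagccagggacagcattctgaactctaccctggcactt
Ccl12: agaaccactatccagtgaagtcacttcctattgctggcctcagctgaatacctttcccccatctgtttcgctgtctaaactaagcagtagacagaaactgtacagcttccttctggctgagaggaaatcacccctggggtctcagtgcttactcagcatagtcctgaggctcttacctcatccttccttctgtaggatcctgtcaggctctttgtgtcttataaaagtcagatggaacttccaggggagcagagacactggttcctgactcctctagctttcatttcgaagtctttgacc
Ccl8: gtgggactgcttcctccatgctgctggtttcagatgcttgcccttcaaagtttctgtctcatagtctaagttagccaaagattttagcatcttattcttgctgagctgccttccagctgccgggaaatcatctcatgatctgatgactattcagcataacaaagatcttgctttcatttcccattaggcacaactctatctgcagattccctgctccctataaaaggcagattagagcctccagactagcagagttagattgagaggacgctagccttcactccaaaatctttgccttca
These lie at chr11:83578587-83578886 and chr11:83593038-83593337 on the minus strand and at chr11:82101595-82101894 and chr11:82114935-82115234 on the plus strand, in that order. Ccl9 held both motifs, which do not overlap. The AP-1 letters, TGAATCA with A at the open base, lie at bases -53 to -47 from the start on the gene strand. The kB letters lie at -35 to -26 on the other strand. Neither motif, nor the interferon-response motif (ISRE, GAAA, any 2 bases and GAAA), was found in the windows of Ccl6, Ccl12, Ccl8 or Ccl3. In the Ccl3 window only 11 of the last 50 bases matched an annotated transcript start, against all 50 in the other windows. The Ccl3 window may therefore lie off that start. Over all 32851 RefSeq promoters of the same length, 5.56% held the kB letters, 7.81% the AP-1 letters and 3.44% the interferon-response letters. The windows of Ccl6 and Ccl9 shared a stretch of 67 aligned bases with 86.6% identity, and those of Ccl8 and Ccl12 shared 186 aligned bases with 65.1% identity. A match describes letters and does not show binding.

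In LSK cells 5 ligands had enough counts to be tested (Ccl3, Ccl4, Ccl5, Ccl6 and Ccl9), and 0 were called by edgeR's quasi-likelihood test. Among all 13132 genes tested in LSK cells, 0.632% were called. Log2 fold changes had a median of -0.96 over the 5 ligands and -0.06 over all genes. None of the 5 ligands except Ccl4 had an unadjusted p under 0.05, and DESeq2 called 1 ligand, Ccl4.

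Ccl4 measured 0.878, 12.7 and 3.28 CPM with PBS, against 0.487 and 0 CPM with IL-1β. These are 12, 162 and 56 counts against 4 and 0 counts. The groups did not overlap, as was so in the lower direction for 21.4% of all genes tested. The log2 fold change was -4.21 (SE 1.45, adjusted p = 0.185 by edgeR). DESeq2 (adjusted p = 0.0239) and edgeR without a filter on low counts (adjusted p = 0.0118) called it lower. Without PBS replicate 2, the highest library, the log2 fold change was -2.73 (adjusted p = 0.212), and without IL-1β replicate 1, which leaves 0 counts with IL-1β, the adjusted p was 0.259. Over all alternatives the adjusted p ranged from 0.0118 to 0.682.

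Ccl3 followed the same order of libraries under PBS. It measured 1.097, 6.19 and 3.45 CPM with PBS and 1.22 and 0.248 CPM with IL-1β, overlapping between treatments (log2 fold change -2.17, SE 1.1, adjusted p = 0.320). Ccl5 had 12, 0 and 28 counts with PBS and 0 and 4 with IL-1β, with a log2 fold change of -0.96 and an SE of 1.90 (adjusted p = 0.818). Ccl6 measured 2.85, 0.548 and 2.69 CPM against 2.56 and 2.73 CPM (adjusted p = 0.862).

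Ccl9 was the one ligand well covered in both sorted populations. In LSK cells it measured 70.0, 97.2 and 131 CPM with PBS and 80.7 and 79.1 CPM with IL-1β, the latter within the PBS range. The log2 fold change was -0.31 (SE 0.30, adjusted p = 0.595). Ccl9 took 53.3 to 80.1% of the summed TPM of the ligands in LSK libraries with PBS, and 83.1 and 88.7% with IL-1β. The lowest share was in PBS replicate 2, where Ccl3 and Ccl4 were highest.

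In LK cells 4 ligands could be tested (Ccl3, Ccl4, Ccl6 and Ccl9), and 0 were called by edgeR, although 9.34% of all 12835 genes tested were. DESeq2 also called 0 of the 4. Ccl3 (lower) and Ccl6 (higher) had an unadjusted p under 0.05. Over the 4 ligands the log2 fold changes had a median of -1.06, against -0.03 over all genes.

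Ccl6 measured 2.30, 1.59 and 4.01 CPM with PBS and 5.96 and 7.06 CPM with IL-1β. Both IL-1β libraries lay above all PBS libraries, as in 23.5% of all genes tested. The log2 fold change was 1.31 (SE 0.44, adjusted p = 0.103 by edgeR). Without PBS replicate 3, the highest of its group, it was called at 1.76 (adjusted p = 0.0035), and without a filter on low counts its adjusted p was 0.0342. Its highest adjusted p over the alternatives was 0.456.

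Ccl3 in LK cells measured 1.11, 5.91 and 1.72 CPM with PBS and 0.795 and 0.642 CPM with IL-1β, in counts 14, 115 and 24 against 6 and 4. The groups did not overlap, as in 22.2% of all genes in the lower direction (log2 fold change -2.02, SE 0.87, adjusted p = 0.199 by edgeR). Without a filter on low counts its adjusted p was 0.0193, and without PBS replicate 2, the highest library, its log2 fold change was -0.96 (adjusted p = 0.466). Ccl4 measured 0.159, 2.78 and 0.787 CPM against 0.530 and 0.160 CPM (log2 fold change -1.82, SE 1.25, adjusted p = 0.417). Ccl9 measured 49.8, 51.3 and 104 CPM with PBS and 62.9 and 47.2 CPM with IL-1β, overlapping (log2 fold change -0.31, SE 0.37, adjusted p = 0.665).

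**Figure D3:**
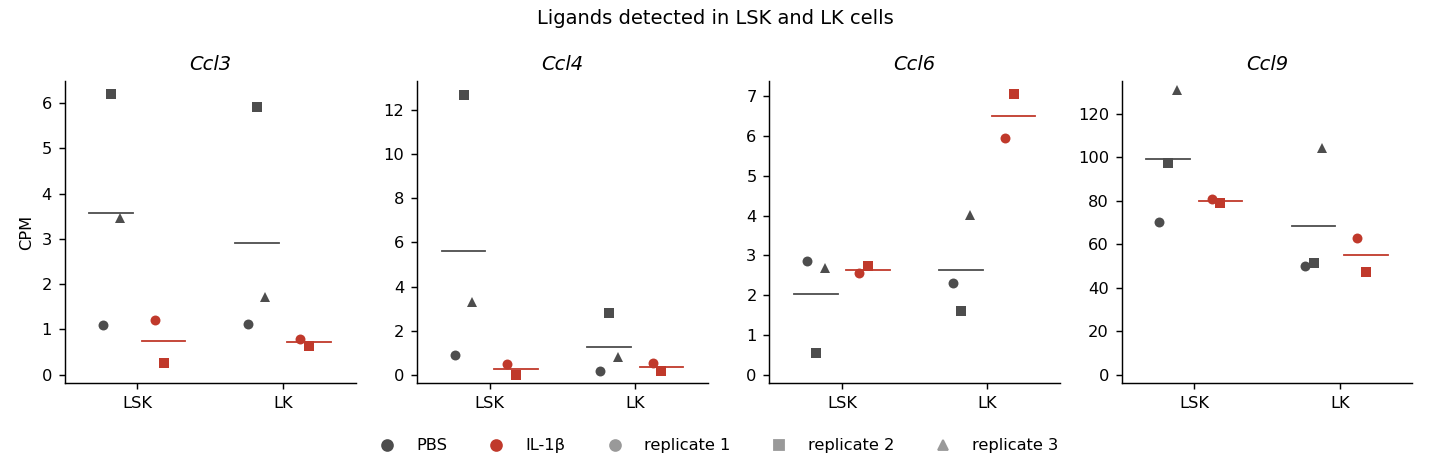
CPM (linear axis) of Ccl3, Ccl4, Ccl6 and Ccl9 in every LSK and LK library, with PBS in grey and IL-1β in red, symbols for replicates and lines for means. PBS replicate 2 is the highest library for Ccl3 and Ccl4 in both populations, Ccl6 in LK cells separates the treatments, and Ccl9 overlaps between them.

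In both sorted populations PBS replicate 2 held the most Ccl3 and Ccl4. Other markers moved with treatment in LK cells. The summed eosinophil markers measured 78.9 to 236 CPM with PBS and 1137 to 1691 CPM with IL-1β, with 4 of 6 called higher, and basophil and mast cell markers measured 355 to 593 CPM against 1492 to 2754 CPM, with 4 of 8 called higher. Of the 8 monocyte markers 4 were called lower, among them Csf1r and Irf8. Late neutrophil markers summed to 6.02 to 19.1 CPM with PBS and 155 to 359 CPM with IL-1β, with 2 of 8 called higher, S100a8 (5.61) and S100a9 (5.97). Erythroid markers summed to 2031 to 2544 CPM against 1337 to 1491 CPM, with 3 of 6 called lower. Of the T and NK cell markers Nkg7 alone could be tested and was called higher (1.88), with means of 70.9 and 261 CPM. Every other marker of that list averaged at most 0.133 CPM in LK cells, so the rise is that of Nkg7 and not of the list. In LSK cells late neutrophil markers summed to 2.90 to 13.2 CPM with PBS and 22.3 to 79.9 CPM with IL-1β, with 0 of 8 called by edgeR, 4 with an unadjusted p under 0.05 and 4 called by DESeq2. There 3 of 8 basophil and mast cell markers were called higher and 1 of 8 monocyte markers, Irf8, was called lower. The part of these cells in the values of Ccl3, Ccl4 and Ccl6 was not tested.

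LK and LSK cells were compared under each treatment. Under PBS 0 of 5 ligands tested were called by edgeR, against 31.2% of all 12737 genes. Of the 5, 0 had an unadjusted p under 0.05 and DESeq2 called 0. Ccl9 had a log2 fold change of -0.50 in LK over LSK cells (SE 0.33, adjusted p = 0.275), and Ccl4 of -2.10 (SE 1.09, adjusted p = 0.175). Deviations of PBS libraries with the same replicate number correlated at 0.132 to 0.504 between the 2 populations, but unlike numbers reached 0.183. Whether the numbers are pairs is therefore not settled, and the main test did not use them. With the replicate number as a block, 1 ligand, Ccl4, was called lower in LK cells at -2.15 (adjusted p = 0.0172). Without LK PBS replicate 3, 1 ligand, Ccl9, was called lower in LK cells at -0.94 (adjusted p = 0.0392).

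Under IL-1β only Ccl6 and Ccl9 could be tested, and 0 were called by edgeR and by DESeq2, against 8.32% of all 11743 genes. Ccl6 had an unadjusted p under 0.05. Ccl6 was at 5.96 and 7.06 CPM in LK and 2.56 and 2.73 CPM in LSK cells, each scaled within its population (log2 fold change 1.33, SE 0.43, adjusted p = 0.0994 by edgeR). Both LK libraries lay above both LSK libraries, as in 31.0% of all genes. Ccl9 differed by -0.51 (SE 0.22, adjusted p = 0.180), with both LK libraries below, as in 28.4% of all genes. Without LSK IL-1β replicate 2, Ccl6 was called higher at 1.38 (adjusted p = 0.0142), and without LSK IL-1β replicate 1, Ccl9 was called lower at -0.51 (adjusted p = 0.0187). The difference between the responses of LK and LSK cells was tested for 6 ligands and called for 0 by edgeR and by DESeq2, against 0.0289% of all genes. For Ccl6 it was 0.98 (SE 0.98, adjusted p = 0.686). Ccl2 had an unadjusted p under 0.05 there (adjusted p = 0.244), resting on 14 and 2 counts in LSK and 0 and 0 counts in LK cells with IL-1β.

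**Figure D4:**
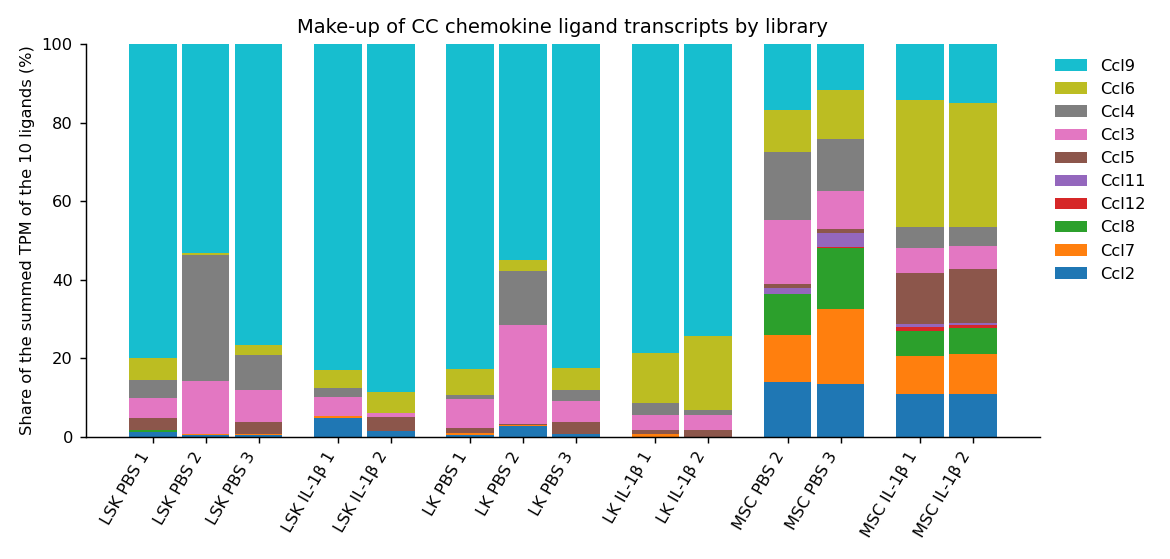
Share of the summed TPM of the 10 ligands (vertical axis, percent) taken by each ligand, in 1 stacked bar for each of the 14 libraries. Ccl9 fills 53.3 to 88.7% of every LSK and LK bar, and in the MSC bars Ccl6 grows from 10.6 and 12.3% under PBS to 31.5 and 32.5% under IL-1β.

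Receptors of these ligands were measured in the same libraries. In MSC cultures 5 of 14 CC receptor genes were tested and 2 were called higher with IL-1β. Ccr1, a receptor of Ccl3, Ccl5, Ccl6 and Ccl9, measured 34.7 and 53.0 CPM with PBS and 231 and 197 CPM with IL-1β (log2 fold change 2.27, SE 0.22, adjusted p = 0.00503). Ccr3, the receptor of Ccl11, measured 14.7 and 10.8 CPM against 27.9 and 26.8 CPM (1.13, SE 0.18, adjusted p = 0.0194).

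Ccr2, the receptor of Ccl2, Ccl7 and Ccl12, was low in MSC cultures, at 1.83 and 3.69 CPM with PBS and 1.54 and 1.59 CPM with IL-1β (adjusted p = 0.259). In TPM it was above Ccr1 and Ccr3 in every LSK library and every LK library with PBS, and it overlapped Ccr1 in LK cells with IL-1β. Ccr2 measured 19.2 to 39.7 CPM in LSK cells with PBS and 46.6 and 57.3 CPM with IL-1β (log2 fold change 0.91, SE 0.34, adjusted p = 0.210). In LK cells it measured 25.9 to 42.8 CPM and 21.1 and 31.1 CPM (-0.31, SE 0.27, adjusted p = 0.515). Under IL-1β it was lower in LK than in LSK cells (log2 fold change -0.96, SE 0.26, adjusted p = 0.0666 by edgeR). The libraries did not overlap there, as in 28.4% of all genes tested, and DESeq2 called Ccr2. Its ligands Ccl2, Ccl7 and Ccl12 were detected mainly in the cultures, each population being scaled on its own.

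In LK cells 2 of 5 receptor genes tested were called higher. Ccr1 measured 2.15, 1.44 and 1.36 CPM with PBS and 12.6 and 5.94 CPM with IL-1β (log2 fold change 2.50, SE 0.42, adjusted p = 0.0101). Ccr10, the receptor of Ccl27 and Ccl28, had 0, 1 and 0 counts with PBS and 20 and 11 with IL-1β, at least 7.53-fold higher against a floor of 3 counts per library (adjusted p = 0.00838). In LSK cells 0 of 6 receptor genes tested were called by edgeR, 2 had an unadjusted p under 0.05, and DESeq2 called 1, Ccr7, a receptor of Ccl19 and Ccl21 that had 11 to 57 counts with PBS and 0 and 0 with IL-1β and was named after its values were seen. There Ccr1 measured 1.68, 0.0783 and 1.29 CPM with PBS and 3.41 and 3.22 CPM with IL-1β (adjusted p = 0.446). The difference between the Ccr1 responses of LK and LSK cells was 0.85 (SE 1.14, adjusted p = 0.774). Under PBS, Ccrl2, a non-signaling receptor of the family, was called lower in LK than in LSK cells (-1.42, SE 0.41, adjusted p = 0.0287).

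**Figure D5:**
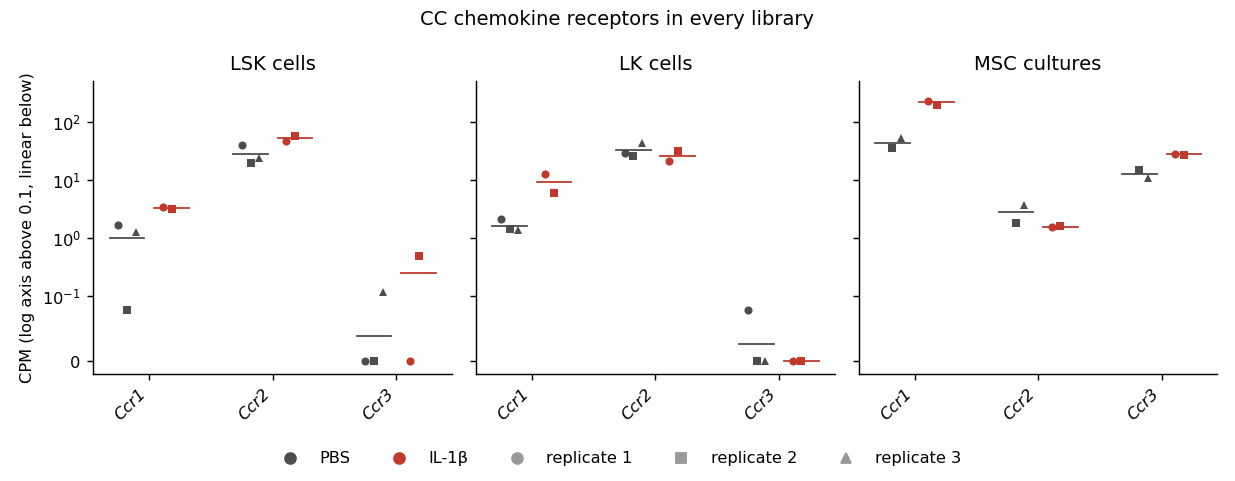
CPM of Ccr1, Ccr2 and Ccr3 (vertical axis, logarithmic above 0.1 and linear below) in every library, with PBS in grey and IL-1β in red, symbols for replicates and lines for means. Ccr2 has its highest CPM in LSK and LK cells, and Ccr1 and Ccr3 have theirs in MSC cultures, where they were called higher with IL-1β.

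The other CC ligands were sparse. Of 13 present in the files, 2 could be tested in LSK cells, 2 in LK cells and 3 in MSC cultures, and 0 were called by edgeR or DESeq2 in any of the 6 comparisons. Of these, 1 in MSC cultures had an unadjusted p under 0.05. Ccl20, an attractant of Ccr6-bearing cells, had the largest change in MSC cultures (log2 fold change 1.54, SE 0.58, adjusted p = 0.143). The homeostatic ligands Ccl25 and Ccl27a were the ones tested in all of the populations.

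Over all 14 libraries, the genes whose log2 CPM was most like that of Ccl3 by Pearson correlation were Ccl4 (0.979), Lrsam1 (0.972) and Eea1 (0.970). For Ccl2 they were Fam234a (0.986), Gpr162 (0.981) and Sparc (0.980). For Ccl5 they were Shb (0.973), Ms4a6c (0.963) and Cyth1 (0.961), and for Ccl6 Nampt (0.989), Cept1 (0.987) and Mfsd1 (0.985). These were drawn from 11049 genes (11050 for Ccl5), and the libraries share the difference between cultures and sorted cells, which these values describe together with treatment.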

How the data were processed

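RNA was sequenced from 10 libraries of sorted LSK and LK cells and 4 libraries of MSC cultures. The values the authors deposited are raw counts of read pairs per gene. Per the labels and file headers, reads were trimmed with fastp 0.20.0, aligned to GRCm38 with HISAT2 2.0.1 and counted with featureCounts 2.0.2 in reverse-stranded mode on Ensembl genes, whereas the methods name GenomicAlignments. Symbols matched 55141 of 55487 identifiers.

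Counts were filtered with filterByExpr, scaled by TMM and tested with edgeR 4.0.16 in R 4.3.3 (robust glmQLFit, glmQLFTest) on the libraries of each comparison, with Benjamini-Hochberg adjustment over all genes tested. The thresholds of the study defined a call (0.05 for the adjusted p, 0.5 for the size of the log2 fold change). The standard error is the fold change divided by the square root of F. The difference of responses was tested as an interaction over the 10 sorted libraries. The filter keeps a gene that is high in one group only. TPM was computed from the exonic lengths in the tables. It shifts with composition and was tested nowhere. Library totals ranged from 4393233 to 30871055, and a floor of 3 counts and the 95% interval cover counting error only, since PCR copies are not independent molecules.

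Deviations from the group means were correlated between LSK and LK libraries of the same number. The values were 0.132 to 0.504 with PBS and 0.16 with IL-1β. Unlike numbers reached 0.183 with PBS (LSK replicate 2 with LK replicate 1), so these values do not establish pairs. With 2 IL-1β libraries per group the deviations mirror each other, and both values there are equal by construction. The number entered as a block only in an alternative. Alternatives were DESeq2 1.42.0, RLE and upper-quartile factors, no filter, at least 10 counts in at least 2 libraries, no fold threshold, the replicate block, a joint fit and each library left out in turn. The tests were checked on simulated data. Promoters were aligned with Biopython 1.88. Figures were drawn with matplotlib 3.10.9.

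The members and lists were chosen with earlier results of these data known. All members are named. Other CC genes are named where called, at a group mean of 10 CPM or more, or as a receptor of a member, and Ccl20, Ccl25 and Ccl27a were named after their values were seen. A further IL-1β-treated MSC library named in a file header was not analysed here. 1 gene of the receptor list is not reported here.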

Additional observations from a re-analysis of the deposited data

How the results depend on the processing

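The number of ligands called kept within 1.5 times under RLE and upper-quartile factors, a filter of at least 10 counts in at least 2 libraries and no fold threshold, in all 6 comparisons. With DESeq2 it moved from 0 to 1 in LSK cells, where all genes called rose from 42 higher and 41 lower to 384 and 486. With no filter on low counts it was 1 in LSK cells (355 and 514 genes) and 2 in LK cells (Ccl6 higher and Ccl3 lower, with 1151 and 693 genes against 869 and 330). Leaving out each library in turn gave 0 to 0 in LSK cells, 0 to 1 in LK cells, 1 to 8 in MSC cultures, 0 to 1 for LK against LSK cells under PBS and under IL-1β, and 0 to 0 for the difference of responses. Without an MSC IL-1β library, 38 or 80 genes in all were called higher, and the lone library was assumed to vary like the other group.

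PBS and IL-1β libraries with the same number did not deviate together within LSK (0.14 and -0.039) or LK cells (-0.103 and 0.061). With the replicate number as a block, 2 ligands were called in LK cells (Ccl6 at 1.76, Ccl3 at -1.97) with 1462 genes higher and 869 lower, and 1 for LK against LSK cells under PBS, and the count for LSK cells stayed at 0. Replicate 3 exists only with PBS, so within LSK or LK cells the block takes up that library. The response to IL-1β then rests on replicates 1 and 2 as assumed pairs, and is not separate from leaving out PBS replicate 3. No paired analysis was possible in MSC cultures because the treatments share 1 number. Directions reversed with the replicate block for Ccl5 in LSK cells (0.19) and Ccl9 in LK cells (0.11), where PBS replicate 3 does not enter the response. With single libraries left out they reversed for Ccl5 in LSK cells (-6.46 to 0.22, positive without IL-1β replicate 1), Ccl6 in LSK cells (-0.052 to 0.72, negative without PBS replicate 2), Ccl9 in LK cells (-0.54 to 0.13, positive without PBS replicate 3) and Ccl11 in MSC cultures (-0.81 to 0.98, positive without PBS replicate 3). The cause was not tested. Ccl2, Ccl9 and Ccl12 lost their call without either MSC IL-1β library, with adjusted p of 0.0548 to 0.189. Ccl7, Ccl8, Ccl11 and Ccl12 did not pass the filter in sorted cells, and the part of depth in this was not tested. With a single PBS library left out, Ccl4 in LK cells (any of the 3) and Ccl5 in LSK cells (replicate 1 or 3) did not pass it either.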
